A study of Mus musculus with 5 samples.

Results

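The Zic loci are the head-to-head gene pairs Zic1-Zic4 on chromosome 9 and Zic2-Zic5 on chromosome 14, taken with every Pou4f1-bound region that overlapped 1 of the 4 genes or lay within 50 kb of it. This gave 3 of the 8038 regions of the table, 1 at Zic1-Zic4 and 2 at Zic2-Zic5. The gene models are those of GENCODE M21 on mm10, and the rule used gene positions and no signal. All samples were whole retinas of wild-type (WT) mouse embryos at E16.5, with 4 retinas pooled per sample, and all were profiled by CUT&Tag, in which an antibody directs the Tn5 transposase to cut and tag the DNA near its target. The libraries were made with rabbit anti-Pou4f1 (n = 2) or rabbit IgG (n = 2), and 1 library made with rabbit anti-H3K9AC was not analysed here. The retina holds many cell types besides the retinal ganglion cells (RGCs) in which Pou4f1 is made, so that more bound cells and more binding per cell cannot be told apart. The table holds no expression values, and the tissue was not checked against its markers.

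Zic proteins are zinc finger transcription factors related to the Gli factors of Hedgehog signalling, and their genes were named after the cerebellum, where they are abundant. In the developing retina Zic2 is known for the ventrotemporal RGCs whose axons stay on the same side of the brain at the optic chiasm, where it acts upstream of the guidance receptor gene Ephb1. Zic1 acts in neural progenitors and, with Zic4, in the growth of the cerebellum, and Zic5 acts in the neural crest and forebrain. Pou4f1 (Brn3a) is a POU homeodomain factor of differentiating RGCs, and POU homeodomains bind AT-rich sites.

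Genes of each pair are divergently transcribed, and the regions did not sit evenly between them. Zic1 (ENSMUSG00000032368.14) is transcribed from the minus strand of chromosome 9 (91358058 to 91365810) and Zic4 (ENSMUSG00000036972.14) from the plus strand (91362413 to 91389348). Of 12 annotated Zic4 transcripts, 1 starts inside Zic1, which makes the gene bodies overlap by 3398 bp, and the other 11 start at least 2557 bp beyond the Zic1 start. The Zic1-Zic4 region (chr9:91363738-91365049, 1312 bp) lay wholly within Zic1, 761 bp from its outermost start. It covered 1014 bp of Zic1 exon, of which 982 bp are coding, and 298 bp of intron, and it fell 3318 bp short of the nearest of the 11 outer Zic4 starts. Zic5 (ENSMUSG00000041703.7) occupies 122456795 to 122465677 on the minus strand of chromosome 14, and Zic2 (ENSMUSG00000061524.8) 122475435 to 122479852 on the plus strand, with 9758 bp between their starts. The Zic2 start region (chr14:122474719-122475313, 595 bp) ended 122 bp before the Zic2 start and covered the start of 2610035F20Rik, a noncoding gene on the opposite strand, with 297 bp in its exons. The Zic2 downstream region (chr14:122482458-122482902, 445 bp) was intergenic and began 2605 bp past the end of Zic2. No region overlapped Zic5, and the nearest lay 9041 bp from it, next to the Zic2 start.

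The central 300 bp of each region is shown because the regions differed in sequence as well as in signal. The sequences are from GRCm38.p6, 5′ to 3′ on the plus strand. Capitals mark matches to TAATTA, a homeodomain core, or to ATNATTAAT, a short POU4 form, on either strand. The Zic1-Zic4 stretch is coding for Zic1 over all 300 bp, on the strand opposite to the one shown.
Zic1-Zic4 region, chr9:91364244-91364543: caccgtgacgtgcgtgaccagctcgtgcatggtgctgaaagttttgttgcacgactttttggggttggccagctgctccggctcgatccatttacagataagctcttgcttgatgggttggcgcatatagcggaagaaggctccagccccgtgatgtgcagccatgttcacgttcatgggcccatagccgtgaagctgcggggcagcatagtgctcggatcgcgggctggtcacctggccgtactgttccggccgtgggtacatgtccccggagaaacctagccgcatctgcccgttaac
Zic2 start region, chr14:122474866-122475165: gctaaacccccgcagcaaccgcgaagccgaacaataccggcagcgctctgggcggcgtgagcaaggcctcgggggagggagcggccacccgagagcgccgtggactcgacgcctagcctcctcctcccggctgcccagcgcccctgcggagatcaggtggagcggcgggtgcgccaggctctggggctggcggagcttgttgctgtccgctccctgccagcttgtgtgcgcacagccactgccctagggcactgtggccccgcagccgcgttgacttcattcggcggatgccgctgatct
Zic2 downstream region, chr14:122482530-122482829: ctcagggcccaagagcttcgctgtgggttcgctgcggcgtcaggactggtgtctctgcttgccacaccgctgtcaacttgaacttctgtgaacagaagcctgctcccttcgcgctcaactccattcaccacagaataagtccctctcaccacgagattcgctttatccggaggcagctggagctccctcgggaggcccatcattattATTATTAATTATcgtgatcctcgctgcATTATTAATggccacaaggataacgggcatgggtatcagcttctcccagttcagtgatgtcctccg

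In their CpG content the regions at Zic1 and at the Zic2 start lay above the median of the table, and the downstream region below it. The GC content was 60.7% in the Zic1-Zic4 region and 69.9% in the Zic2 start region, where 93.9% of the 8028 regions on chromosomes had a lower value. It was 56.2% in the Zic2 downstream region. The ratio of observed to expected CpG was 0.804, 0.815 and 0.573 in the same order, beside a median of 0.670 over all regions, 0.772 over those within 1 kb of a start and 0.243 over the others. In this ratio the downstream region therefore stood between the medians of the start-proximal and the distal regions.

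No exact match to the long POU4 motif was found at the Zic loci, and inexact matches were not searched for. This motif, ATNAAT followed by AATT or TATT on either strand, was absent from all 3 regions, where 9.80% of the 1378 regions within 10% of the length of the Zic1-Zic4 region held it, 15.7% of 528 for the Zic2 start region and 15.8% of 114 for the Zic2 downstream region. These shares match on length alone. Of regions within 1 kb of a start, as the Zic2 start region was, 2.70% held the long motif. Of those not within 1 kb, as the other Zic regions were, 26.1% did. The octamer ATGCAAAT, bound by Oct factors, and TGGGTGGTC, a site bound by Gli and Zic factors, were absent from all 3 Zic regions as well. The homeodomain core TAATTA was present once, at chr14:122482742-122482747 in the Zic2 downstream region, 62 bp past its centre. It was held by 16.7% of regions of like length and by 27.5% of regions not within 1 kb of a start. The short form ATNATTAAT, which was chosen after this sequence had been seen, occurred 3 times in the downstream region, from 57, 60 and 84 bp past the centre, and in neither of the others. The matches at 57 and 60 bp overlap each other and the core, and so are not separate sites. The short form was held by 10.5% of regions of like length and by 15.2% of regions not within 1 kb of a start. The matches are letters only and do not show where Pou4f1 sat.

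The deposited value of a region was read as a signal averaged over its length, since its product with the length came in whole steps in nearly all regions, and the Pou4f1 value at the Zic loci ranged from near the bottom of the table to well above its median. At Zic1-Zic4, Pou4f1 replicates 1 and 2 gave a signal of 86.4 and 48.2, whereas either IgG library was listed at 0. At the Zic2 start it was 165 and 127 in Pou4f1, 0 in the library named IgG and 23.9 in the library named Negative8, taken here as IgG by inference from the study's methods. At the Zic2 downstream region it was 251 and 306 in Pou4f1, 9.42 in the IgG-named library and 0 in Negative8. Both Pou4f1 libraries were thus above both IgG libraries in 3 of 3 regions, an order that 96.5% of all regions shared. Between the regions, the ranges of the Pou4f1 replicates did not overlap, and the downstream region was the highest in either replicate. Over the table, the median signal was 184 and 155 for Pou4f1 and 4.78 and 7.96 for IgG, in the order used above.

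**Figure D1:**
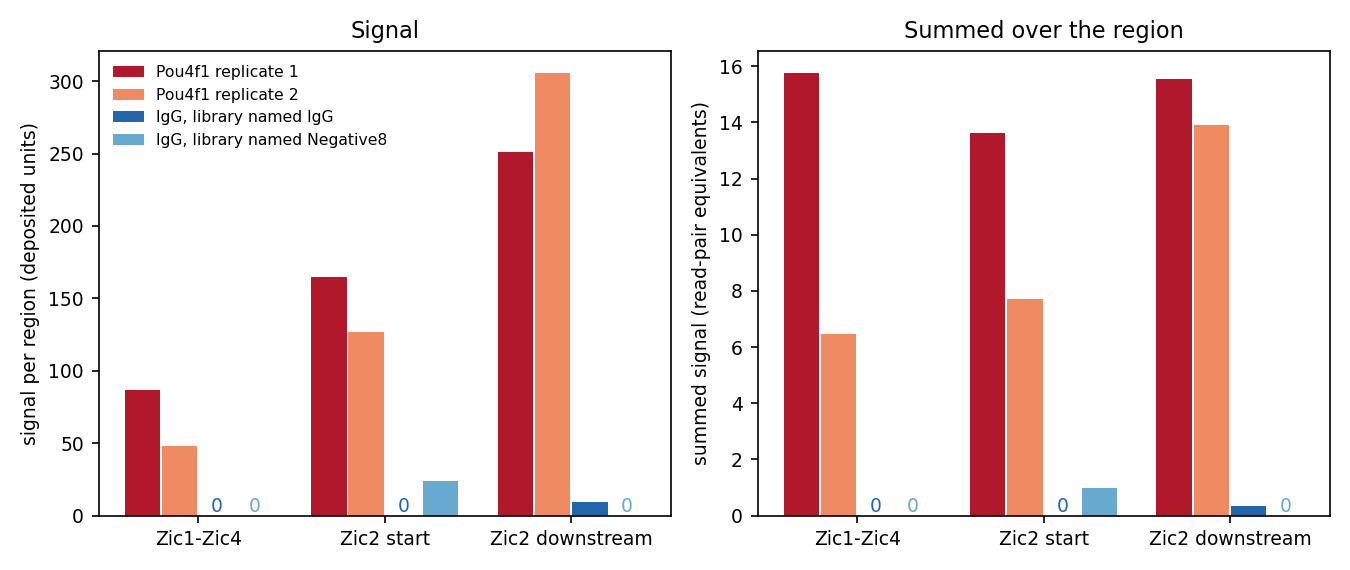
Signal of the 3 regions at the Zic loci in each library, as deposited (left) and summed over the length of the region in read-pair equivalents (right), with 1 bar per library and 0 written where a library was listed at 0. On the left the downstream region was highest with 251 and 306, and on the right the regions lay closer together, between 13.6 and 15.8 in replicate 1. In replicate 2 they stood at 6.47, 7.72 and 13.9, from left to right.

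With limma on log2(signal + 1), fitted over all 8038 regions, 2 of the 3 Zic regions were higher in Pou4f1 than in IgG at a Benjamini-Hochberg adjusted p under 0.05 and 0 were lower, where 64.8% of all regions were higher and 0.224% lower. At an unadjusted p under 0.05 the counts were 2 and 0 as well. Rabbit IgG was also the control when the regions were called, so these counts are no independent evidence of binding. The Zic2 downstream region differed by 6.43 on the log2 scale (standard error 1.39, adjusted p = 0.0329 from limma). The Zic1-Zic4 region passed with an adjusted p of 0.00402 from limma. No fold is given for it because both IgG libraries were listed at 0, where the pseudocount sets the fitted difference. The Zic2 start region, with a log2 difference of 4.87 (standard error 1.87), did not pass the threshold (adjusted p = 0.0875 from limma). The differences of both Zic2 regions depend on the pseudocount as well, since 1 IgG library was at 0 in each. With a pseudocount of 0.1 and 10 they were 8.15 and 4.36 downstream, and 6.54 and 3.07 at the start. The median log2 difference was 6.04 over the 3 regions and 5.22 over all regions. The former is the Zic1-Zic4 value, which the pseudocount of 1 sets, and it is neither a fold nor a bound. The 2 calls did not rest on equal ground. Regions at 0 in both IgG libraries passed in 99.7% of 1835 cases and those at 0 in 1 of them in 39.4% of 3516, and both Zic2 regions belonged to the latter. The call of the Zic2 downstream region was lost without Pou4f1 replicate 1 (adjusted p = 0.300 from limma) and without replicate 2 (adjusted p = 0.293), while its log2 difference was 6.57 and 6.29. In these fits 2360 and 2484 regions of the table were higher, in place of 5205. The Zic2 start region passed when the library named IgG (adjusted p = 0.000586) or Negative8 (adjusted p = 3.15e-22) was left out, where the spread came from the Pou4f1 pair alone and 7587 and 7710 of the 8038 regions were higher.

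Above 0, the IgG values at the Zic loci were 160 and 55 steps of the signal. Signal times length was a whole multiple of a step fixed for each library (tolerance 0.05 steps) in all but 2 regions of either Pou4f1 library and in all of those above 0 in IgG, and 160 steps was the commonest value above 0 in either IgG library, seen in 887 of the 4322 regions above 0 in the former IgG library and in 871 of 4568 in the latter. In Pou4f1 replicates 1 and 2 the commonest values were 2206 and 635 steps, so the 160 rests on IgG. A pair of 75-nt reads also holds fewer than 160 bases, and the read-pair scale is therefore an assumption. If a pair gives 160 steps, the 23.9 at the Zic2 start would correspond to 1 read pair and the 9.42 downstream to 0.344 of a pair. On the same assumed scale the Zic1-Zic4 region held 15.8 and 6.47 pairs in Pou4f1 replicates 1 and 2, the Zic2 start region 13.6 and 7.72, and the Zic2 downstream region 15.5 and 13.9. The medians over the table were 24.0 and 15.5. In replicate 1 the 3 Zic regions therefore carried nearly equal coverage, and each carried less than the median region. In replicate 2 they did not, with 13.9 at the downstream region beside 6.47 and 7.72 at the others. The sources used here do not give the number of reads per library, and no interval for counting error was computed.

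The order of the Zic regions differed between signal per base and the sum over the region. The Zic1-Zic4 region was longer than 79.1% of all regions, the Zic2 start region longer than 6.30% and the Zic2 downstream region longer than 0.896%. Ranked by the mean Pou4f1 signal of the 2 replicates, from the highest, the regions stood at 7685, 4954 and 1781 of 8038, so that 4.39%, 38.4% and 77.8% of regions were lower. Ranked by signal times length, a measure chosen after the lengths were seen, they stood at 7173, 7225 and 5627, with 10.8%, 10.1% and 30.0% of regions lower. The high rank of the Zic2 downstream region thus held for signal per base and not for the sum over the region. In pairs, the range of the Zic1-Zic4 region over the replicates overlapped those of both Zic2 regions.

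**Figure D2:**
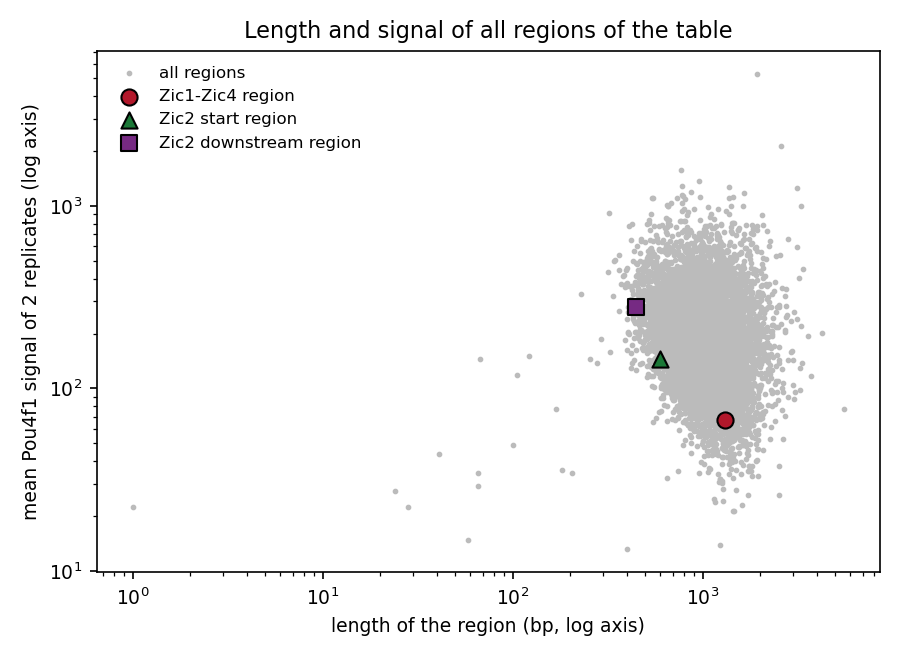
Length of every region (bp, log axis) against its mean signal over the 2 Pou4f1 replicates (log axis), with the regions at the Zic loci as large symbols. The Zic2 downstream region (445 bp) stands at the short edge with a mean signal of 278, and the Zic1-Zic4 region (1312 bp) near the lower edge with 67.3.

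The replicates differed in opposite directions among the Zic regions. Replicate 2 gave 0.558 of the signal of replicate 1 at Zic1-Zic4 and 0.771 at the Zic2 start, but 1.22 at the Zic2 downstream region. The median of this ratio was 0.810 over all regions, 0.701 within 1 kb of a start and 1.16 elsewhere. The Zic2 start region had its centre within 1 kb of an annotated start. The Zic2 downstream region did not, and neither did the Zic1-Zic4 region, whose centre was 1340 bp from the nearest start, that of a noncoding Zic1 transcript. Among regions not within 1 kb of a start, 37.2% had more signal in replicate 1, as Zic1-Zic4 did. With 1 library per replicate this difference has no test.

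The Zic1-Zic4 region stood alone. The nearest regions of the table lay 1176621 bp to one side and 1199514 bp to the other, and 99.2% of all regions had a closer neighbour. The Zic2 regions were 7144 bp apart, where the median distance from a region to its nearest neighbour was 64016 bp and 11.2% of regions had a neighbour closer than that. The next region beyond the Zic2-Zic5 window, 54948 bp past the end of Zic2 and inside Pcca, had a Pou4f1 signal of 26.5 and 0 beside an IgG signal of 30.4 and 0, and was the lowest of all 8038 by mean Pou4f1 signal. On the other side of the limit, the outermost member was the Zic2 downstream region, 2605 bp from the gene. Of 21755 protein-coding genes, 46.4% had no region within 50 kb, 29.7% had 1, as Zic1 and Zic4 did, and 15.2% had 2, as Zic2 and Zic5 did.

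**Figure D3:**
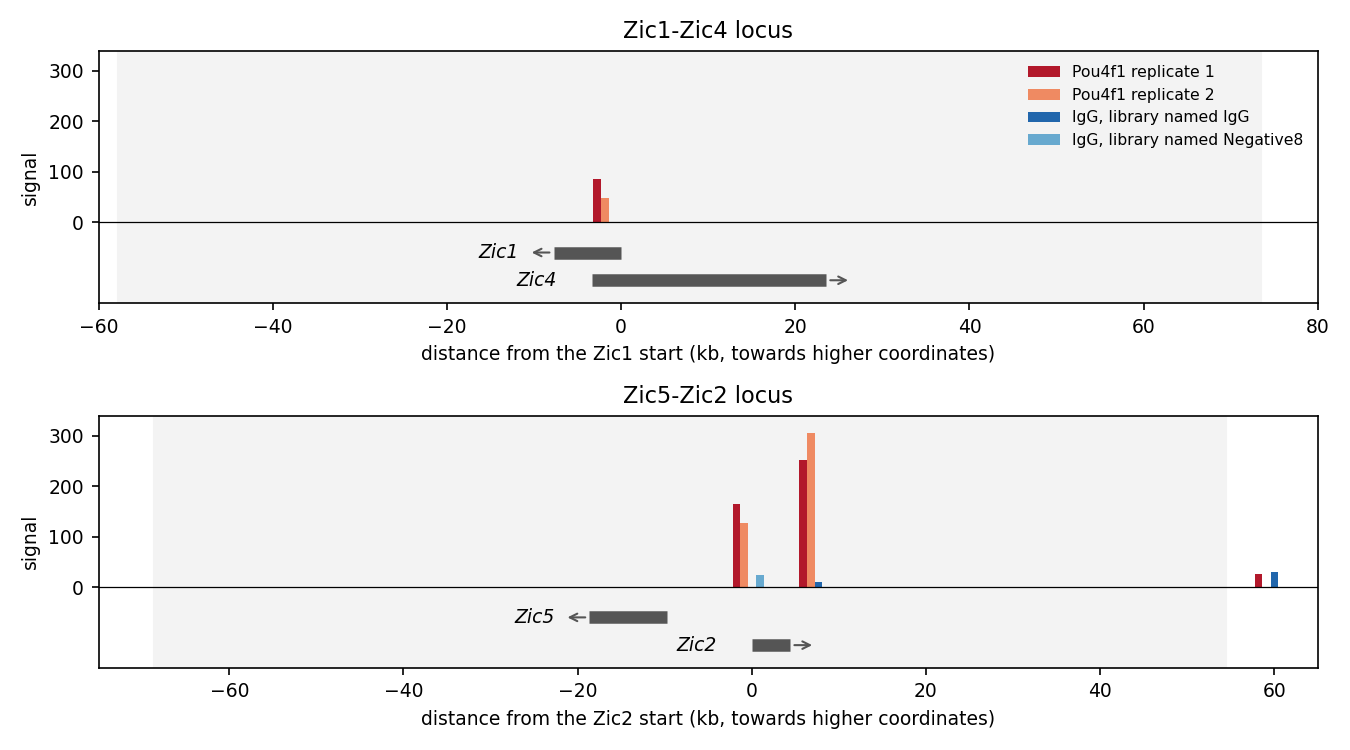
Regions and genes of the Zic1-Zic4 and Zic2-Zic5 loci by distance from the Zic1 or Zic2 start (kb), with the signal of each library as bars set side by side at the centre of the region, genes as grey blocks with an arrow for the strand, and the 50 kb window shaded. The Zic1-Zic4 window holds 1 region, the Zic2-Zic5 window holds 2 at the Zic2 end and none at Zic5, and the low region right of the shading lies in Pcca.

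For the genes below, as for Zic, a region was counted when it overlapped the gene or lay within 50 kb of it. Of 6 Gli superfamily genes, which encode zinc finger factors akin to Zic, 4 had a region, and 6 of their 10 regions were higher in Pou4f1 (beside 64.8% of regions over the table), with a median log2 difference of 3.54 (beside 5.22). The highest was in Gli2, an activator of Hedgehog targets, at 428 and 557 for Pou4f1 beside 11.4 and 0 for IgG (limma, adjusted p = 0.0309). The region near Gli1, a target of the pathway, lay outside the gene and had 163 and 122 against 28.8 and 5.65 (limma, adjusted p = 0.0522). The higher of 2 regions near Glis1, also outside the gene, had 129 and 148 against 4.81 and 5.61 (limma, adjusted p = 0.00454). The highest of 3 regions in or near Glis2 had 112 and 76.1 against 12.2 and 14.2 (limma, adjusted p = 0.0185). Gli3 and Glis3 had no region.

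Zic2 is known to act with other genes on the side to which RGC axons grow. Of 5 genes linked to the ipsilateral projection, 3 had a region, and 1 of the 4 regions was higher in Pou4f1 (25.0%, beside 64.8% over the table), with a median log2 difference of 4.57 (beside 5.22). In all 4, either Pou4f1 value exceeded either IgG value, as in 96.5% of all regions. Ephb1, the guidance receptor downstream of Zic2, had 2 regions, and the higher had 278 and 369 for Pou4f1 beside 4.77 and 0 for IgG (limma, adjusted p = 0.0162). Boc, a Hedgehog co-receptor of ipsilateral RGCs, had 171 and 138 beside 0 and 21.2 (limma, adjusted p = 0.0774), close to the values at the Zic2 start. At Foxd1, a forkhead factor that acts upstream of Zic2 in the ventrotemporal retina, Pou4f1 gave 175 and 58.2 and IgG 24.0 and 19.7 (limma, adjusted p = 0.0695). Slc6a4 and Ccnd2 had no region.

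Of 11 genes linked to the contralateral projection, 10 had a region, and 10 of their 18 regions were higher in Pou4f1 (55.6%, beside 64.8% over the table), with a median log2 difference of 5.33 (beside 5.22). The highest was in or near Nrp1, a receptor in axon crossing, with 649 and 928 for Pou4f1 beside 0 and 2.22 for IgG (limma, adjusted p = 0.00498). For Isl2, a LIM homeodomain factor known to restrict the ipsilateral program, the higher of 2 regions in or near the gene had 585 and 569 beside 0 and 16.9 (limma, adjusted p = 0.0387). In or near Pou3f1, a POU factor, the highest of 3 regions had 282 and 314 beside 6.36 and 7.42 (limma, adjusted p = 0.00320). For Gap43, a growth cone protein, the higher of 2 regions in or near the gene had 194 and 385 beside 1.01 and 5.26 (limma, adjusted p = 0.0122). All 4 of these regions lay above the Zic1-Zic4 and Zic2 start regions in either replicate. The counts of the ipsilateral and contralateral genes were not compared by a test. At Lhx2, Lhx9, Tbx20 and Robo3, grouped after their values were seen, 2 of 3 regions were higher, beside 64.8% over the table.

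**Figure D4:**
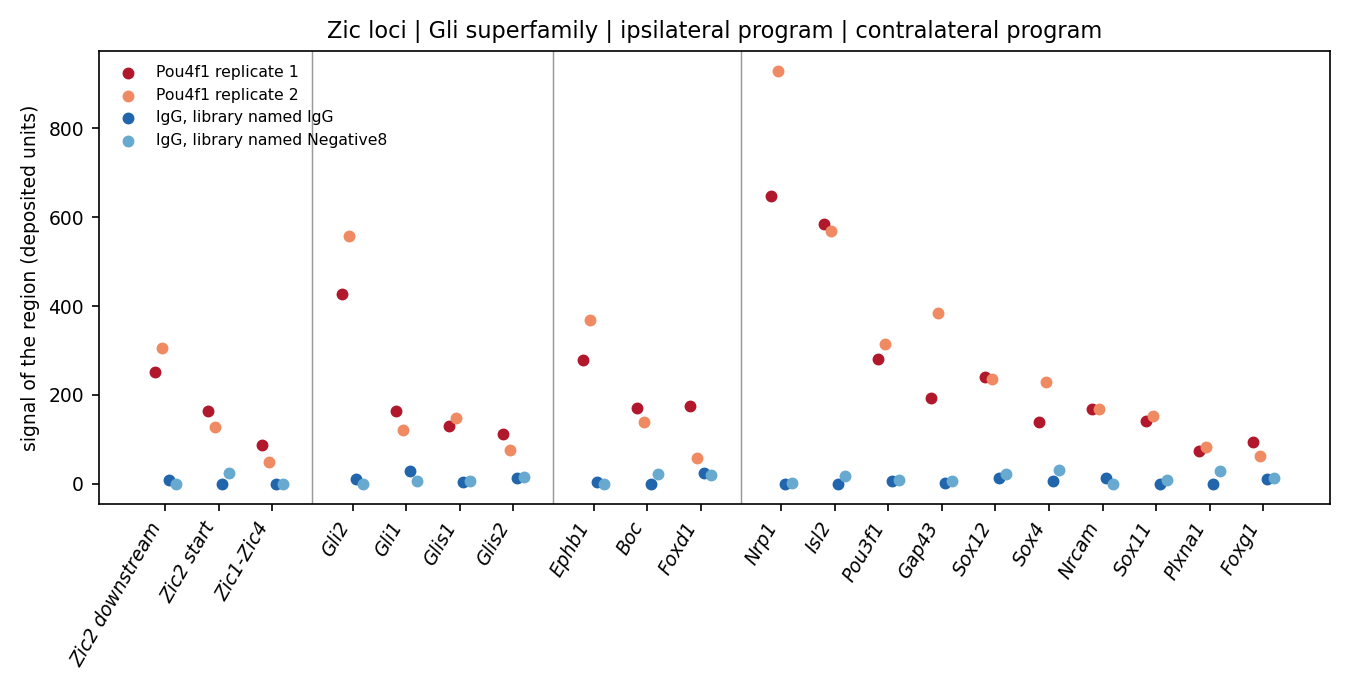
Signal in the 4 libraries for the regions at the Zic loci and for the region of highest mean Pou4f1 signal within 50 kb of each gene of 3 lists that had one. The Zic2 downstream region (251 and 306) lies near Ephb1 (278 and 369) and Pou3f1 (282 and 314), and Nrp1 (649 and 928) and Isl2 (585 and 569) stand above all Zic regions.

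Other developmental loci were read in the same way. Of 9 genes of the ciliary margin and optic stalk, 5 had a region, and 4 of 6 regions were higher (66.7%, beside 64.8%). The highest was at Mitf, a factor of the pigment epithelium, with 198 and 188 for Pou4f1 beside 21.1 and 15.3 for IgG (limma, adjusted p = 0.0101). Of 17 genes in other paired or clustered factor loci, or in the RGC network, 14 had a region, and 18 of 28 regions were higher (64.3%, beside 64.8%). The region of highest signal near Dlx1 and Dlx2, homeobox genes that lie side by side, had 264 and 330 against 5.27 and 18.8 (limma, adjusted p = 0.0185), whereas Dlx5 and Dlx6 had none. Near Irx5, but outside the gene, the highest region had 376 and 255 against 19.2 and 4.49 (limma, adjusted p = 0.0220).

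The genes whose summed signal was nearest to that of a Zic pair, by Euclidean distance of log2(signal + 1) over the 4 libraries and among 11643 genes with a region, are named as a description. For Zic1-Zic4 they were Gm7247 and Vmn2r88, which have 1 region in common (distance 0.0391), and Bnip2 (0.117). For Zic2-Zic5 they were Ndfip2 (0.261), Mreg (0.286) and Fmn1 (0.300), each with 2 regions.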

How the data were processed

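CUT&Tag signal in 2 Pou4f1 and 2 IgG libraries was read from the table of regions that the authors deposited. The authors trimmed and masked the paired reads, mapped them to mm10 (Bowtie2 2.4.5) and used SEACR, in relaxed mode, to call regions. The sources used here do not give the scaling of the signal, the library depths or any pooling for the calls. The column named Negative8 was taken as IgG by inference, since the study names no other negative control. The regions were called on Pou4f1 signal with rabbit IgG as the negative control, which raises Pou4f1 over IgG in them. A test of Pou4f1 against IgG in these regions therefore repeats the choice of the regions.

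Values were compared as deposited on the log2(signal + 1) scale by limma 3.58.1 (R 4.3.3), without covariates, with Benjamini-Hochberg adjustment over 8038 regions and a threshold of 0.05. This scale understates the change of low regions. Whether the Pou4f1 and IgG libraries of a replicate came from separate pools is not stated, and p-values measure only the spread between these libraries, which may be technical. The fit and the motif search were tested on simulated data. Where 15 regions or fewer were members, all were described, and for other lists up to 4 genes by mean Pou4f1 signal. The members and lists were chosen with earlier results of these data known. Sox4, Pou3f1, Lhx2, Lhx9, Tbx20 and Robo3 were moved between lists after their values were seen, because their first assignment was wrong or uncertain. One listed gene is not reported here. Starts were counted within 1 kb of the centre. Alternatives were the scaling, pseudocount, a minimum summed signal of 50, a trend of spread, a 2-fold limit, each library left out, other windows and motifs. Python 3.11.15 with numpy 2.4.6, pandas 2.3.3 and matplotlib 3.10.9 was used for other steps.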

Additional observations from a re-analysis of the deposited data

How the results depend on the processing

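All 3 log2 differences stayed above 0 under the 10 alternative fits, ranging from 3.90 to 8.15 for the Zic2 downstream region and from 2.53 to 7.19 for the Zic2 start, with that of Zic1-Zic4 set by the pseudocount. The Zic1-Zic4 region passed the threshold of limma in 10 of 10, the downstream region in 5 and the start region in 3, with adjusted p up to 0.00901, 0.529 and 0.619. Where IgG is 0 throughout, multiplying it has no effect, and without a Pou4f1 replicate the residual spread there is 0, so that the 10 of 10 at Zic1-Zic4 is no sign of stability. The number of Zic regions called was 1 with the column totals as library sizes, 1 with IgG taken as 4 times shallower and 1 with a pseudocount of 0.1, but 3 with a pseudocount of 10, and it ranged from 1 to 3 with a library left out. Without Pou4f1 replicate 1 or replicate 2 it was 1, and with either IgG library left out it was 3. Over the table, 1821 regions were higher with the column totals, 2152 with IgG taken as 4 times shallower, 3492 and 7443 with a pseudocount of 0.1 and 10, 2360 and 2484 without Pou4f1 replicate 1 and 2, 7587 and 7710 without the library named IgG and Negative8, and 5205 as reported. The median log2 difference of the Zic regions was 3.90 with the column totals, beside 2.74 over all regions, so that the scaling shifted all regions. It was 8.15 with a pseudocount of 0.1, beside 6.85 over all regions. With a pseudocount of 10 it was 3.07, below the 3.44 over all regions, so the order of the 2 medians depended on the pseudocount. The Zic median ranged from 5.62 to 6.29 with a library left out. Only 1 region overlapped a Zic gene body, 3 lay within 10 kb and 4 within 100 kb. No paired analysis was possible because the IgG columns carry no replicate number.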
